A study of Mus musculus with 88 samples.

Results

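The genes described here are 9 enzymes and subunits of the citrate cycle and of the pyruvate dehydrogenase complex: Pdha1, Dld, Cs, Idh3a, Idh3g, Ogdh, Suclg1, Fh1 and Mdh2. They were chosen as the probe sets that the platform annotation maps to one of these symbols alone. All 9 were on the array, through 11 of its 12488 probe sets, and all 9 were among the 5672 genes tested, of 8251 genes with a probe set of their own. The study measured RNA of whole hearts from mice on Affymetrix arrays, with each mouse on its own array. The question it addressed was how cardiac transcripts change in a mouse that develops occlusive coronary disease and heart failure soon after weaning, and in the same mouse given probucol, a lipid-lowering antioxidant drug.

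All 88 mice lacked apolipoprotein E (apoE-/-). The dKO mice lacked in addition both copies of the gene for the HDL receptor SR-BI (SR-BI-/- apoE-/-), and the control mice, called HET, kept 1 copy of it (SR-BI+/- apoE-/-), so no wild-type heart was compared. Hearts were taken from mice 21, 31 or 43 days old. The chow-fed groups held, in the order of age, 10, 10 and 12 dKO mice against 9, 10 and 9 HET mice. The probucol-fed groups were smaller, with 6, 8 and 6 dKO mice and 3, 3 and 2 HET mice. As the design text tells it, chow-fed dKO mice show no coronary disease at 21 days. Their infarcts are small at 31 days, when the heart already fails, and large at 43 days with severe failure, near the age at which many have died, so that the oldest hearts come from mice still alive. The free-text description of dKO chow replicate 2 at 21 days names another age than its own age label, and the array was kept in the 21-day group.

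As a check of the labels, the targeted gene Scarb1, which encodes SR-BI, had a mean log2 signal of 7.48 ± 0.37 (SD, n = 9), 7.43 ± 0.45 (n = 10) and 7.62 ± 0.24 (n = 9) in HET chow hearts at 21, 31 and 43 days. In dKO chow hearts it was 5.90 ± 0.49 (n = 10), 6.68 ± 0.38 (n = 10) and 6.92 ± 0.41 (n = 12), so it was lower at every age on chow, and the HET and dKO hearts overlapped at 31 and 43 days. Whether the probe set lies in the deleted part was not tested. Heart muscle markers, the defining transcripts of the labelled tissue, were high in all groups: the summed signal of 9 cardiomyocyte genes lay between 41600 and 67500 in the 88 arrays. Array medians lay between 27.8 and 75.4 in linear signal, and the arrays could be split into sets of 68 and 20 by a component of the spread within groups, a split made from the data with no label behind it. The smaller set was uneven over the groups on chow: the 21-day groups had 2 HET and 6 dKO hearts in it, the 31-day groups 6 HET hearts and 0 dKO hearts, the 43-day groups 3 HET hearts and again 0 dKO hearts, so the set partly coincides with genotype, and values within the larger set are given beside the chow results.

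The citrate cycle is the mitochondrial pathway that oxidises acetyl-CoA to carbon dioxide and passes the electrons to the respiratory chain as NADH and reduced flavin. Pyruvate dehydrogenase feeds it with acetyl-CoA from glucose and lactate, and fatty acid oxidation, the main fuel route of the adult heart, feeds it from the other side. Heart muscle is packed with mitochondria, and transcripts of these enzymes are among its most abundant metabolic messages. Their genes are nuclear, and the coactivator PGC-1 alpha with its partner receptors of the ERR and PPAR families, together with NRF and GABP factors, is known to drive them.

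The promoters of the members were searched for motifs of the ERR, NRF1 and GABP factors and for 3 other promoter elements (CRE, GC box and CCAAT). Whether a motif bears on the differences between groups was not tested. RefSeq windows of 300 bases, from 250 bases before to 50 bases after a gene's start on GRCm38.p6, were found for 8 of the 9 members, in 13 windows of which Ogdh has 6; Idh3a had no entry. The motifs were AAGGTCA (ERR), GCGCANGCG (NRF1), CCGGAAG (ETS, the family of GABP), TGACGTCA (CRE), GGGCGG (GC box) and CCAAT, each on both strands. They occurred in 4.72%, 6.25%, 8.86%, 1.79%, 35.7% and 37.4% of all 32851 windows. Shown here is one window for each of the 4 members with a motif of the rarer kinds, with the match in capitals: the CRE of Mdh2 at position -127 from the start, the ERR match of Ogdh on the opposite strand at -5, the ETS match of Idh3g at -104 and the NRF1 match of Dld at 39. The windows are Mdh2 chr5:135778399-135778698 (plus strand), Ogdh chr11:6291920-6292219 (plus), Idh3g chrX:73786848-73787147 (minus) and Dld chr12:31351422-31351721 (minus).
Mdh2: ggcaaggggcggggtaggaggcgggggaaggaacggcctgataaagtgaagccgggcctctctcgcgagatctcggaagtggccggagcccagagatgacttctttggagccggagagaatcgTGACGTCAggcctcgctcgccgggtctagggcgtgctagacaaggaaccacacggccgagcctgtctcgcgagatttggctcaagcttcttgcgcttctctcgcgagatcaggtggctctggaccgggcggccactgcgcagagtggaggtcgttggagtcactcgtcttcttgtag
Ogdh: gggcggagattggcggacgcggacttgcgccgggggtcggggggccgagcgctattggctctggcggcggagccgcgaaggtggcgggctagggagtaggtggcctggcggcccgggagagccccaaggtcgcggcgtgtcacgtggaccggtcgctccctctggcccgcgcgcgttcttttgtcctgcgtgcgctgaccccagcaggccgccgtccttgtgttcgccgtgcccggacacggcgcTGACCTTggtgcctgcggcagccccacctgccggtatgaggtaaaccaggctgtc
Idh3g: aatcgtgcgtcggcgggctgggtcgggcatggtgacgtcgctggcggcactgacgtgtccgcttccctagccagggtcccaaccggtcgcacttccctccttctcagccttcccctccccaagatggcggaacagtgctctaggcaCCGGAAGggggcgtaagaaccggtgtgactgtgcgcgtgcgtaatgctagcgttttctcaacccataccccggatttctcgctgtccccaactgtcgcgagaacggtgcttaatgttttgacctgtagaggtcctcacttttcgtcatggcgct
Dld: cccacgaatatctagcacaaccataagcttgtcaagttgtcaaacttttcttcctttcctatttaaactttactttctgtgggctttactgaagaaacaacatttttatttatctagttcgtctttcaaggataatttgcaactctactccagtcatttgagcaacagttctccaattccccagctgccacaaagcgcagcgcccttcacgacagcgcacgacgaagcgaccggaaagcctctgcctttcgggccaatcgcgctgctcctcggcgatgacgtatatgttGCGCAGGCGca
The ERR motif was found in the windows of 1 member (Ogdh), NRF1 in 2 (Ogdh and Dld), ETS in 1 (Idh3g) and CRE in 2 (Ogdh and Mdh2). The GC box was found in Cs, Ogdh, Fh1 and Mdh2, and CCAAT in Cs, Ogdh, Fh1 and Dld, while the windows of Suclg1 and Pdha1 held none of the 6. Counted by window, as the shares over all windows are, ERR was in 1 of 13, NRF1 in 3, ETS in 1 and CRE in 4. The GC box was in 7 of 13 and CCAAT in 9. Windows of Ogdh overlap, so 1 site can count in several of them. A match is a stretch of letters and not a measured binding site. No motif of the 6 was in the windows of all 8 members.

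All 9 transcripts were readily measured. On the linear scale of the deposited signal, the lowest value of any tested member in any heart was 270 for Idh3a, against a floor of 4.22 below which signals were raised to that value before taking log2 (2.08). No tested member was at the floor on any of the 88 arrays. Idh3a and Idh3g each had a further probe set. That of Idh3a was dim, with a mean signal of 6.49 and 31 of 88 arrays at the floor, so it was not tested and gives no second reading of the gene. That of Idh3g had a mean signal of 48 and was 6.05 ± 0.54 (n = 9) in HET chow hearts, 4.93 ± 0.48 (n = 12) in dKO chow hearts and 5.75 ± 0.66 (n = 6) in dKO probucol hearts at 43 days, in log2 signal, so the dKO chow hearts were the lowest of these groups by this probe set too.

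**Figure D1:**
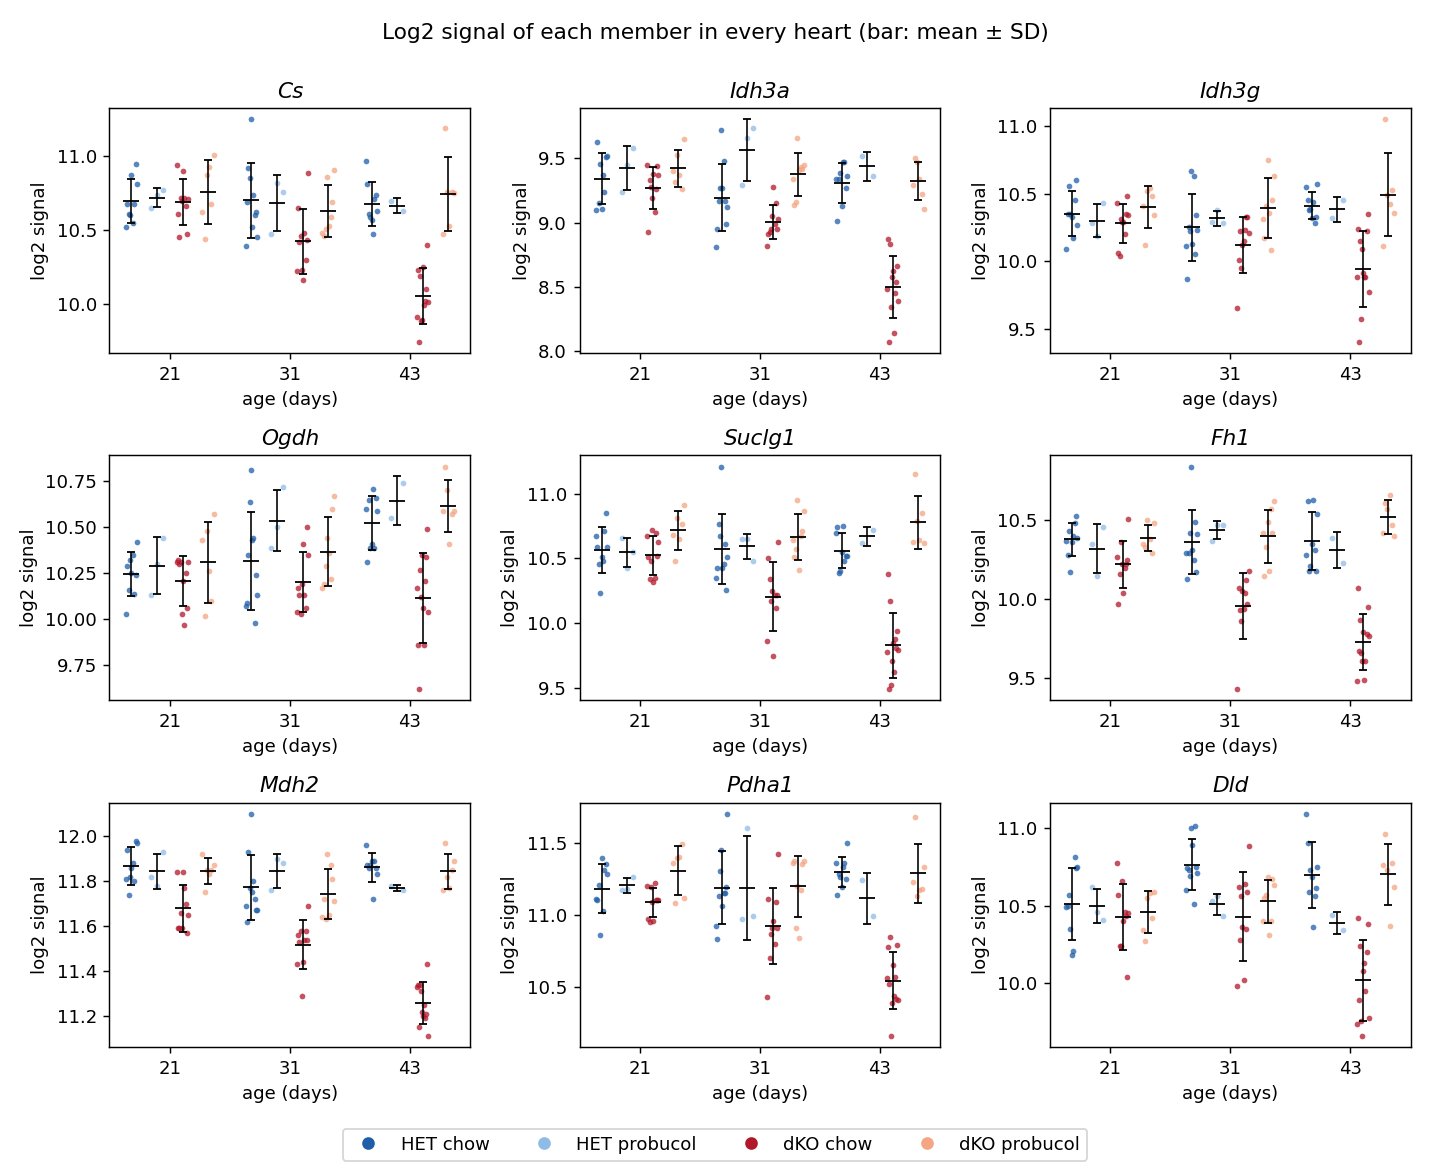
Log2 signal (vertical axes) of the 9 members in every heart, by age in days (horizontal axes) and group; points are hearts and bars are mean ± SD. In each panel the dKO chow hearts at 43 days (dark red) are the lowest group, and the dKO probucol hearts of that age (light red) lie with the HET hearts (blue).

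Across the 12 groups, the dKO chow hearts at 43 days had the lowest mean for each of the 9 members, and they did so for each after centring the arrays too. The dKO chow hearts at 31 days came next for 8 of the 9, the exception being Dld. Above those, neighbouring groups in the order were separated by at most 0.17 on the log2 scale, and most steps were under 0.1, less than the SD within groups. The distance from the lowest to the highest group mean was 1.06 for Idh3a and 0.71 for Cs, against median SDs within groups of 0.17 for both. The highest group was not the same one from member to member, and it was a probucol group for 7 of the 9.

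At 21 days, before disease is detectable, the members of dKO and HET hearts on chow lay close together. The differences (dKO minus HET, log2) ran from -0.19 to -0.01 with a median of -0.07, where the median over all genes tested was -0.10. Only Mdh2, the mitochondrial malate dehydrogenase that regenerates oxaloacetate, passed the test, with -0.19 ± 0.05 (SE) and an adjusted p of 0.0285 (limma); 2.08% of all genes passed in either direction. Mdh2 was 11.87 ± 0.08 (SD, n = 9) in HET and 11.68 ± 0.10 (n = 10) in dKO hearts, and the groups overlapped. The call was lost without dKO replicate 2, the array with the conflicting age, at -0.18 (adjusted p = 0.0633), and within the larger array set, at -0.16 (adjusted p = 0.875). After each array was centred on its median, the difference of Mdh2 was 0.03 (adjusted p = 0.895), so its direction at this age rested on the scaling.

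At 31 days, when infarcts are small, 6 of the 9 members were lower in dKO than in HET chow hearts: Cs, Suclg1, Fh1, Mdh2, Pdha1 and Dld. Over all genes 3.88% were called lower. The median difference was -0.27 for the members and 0.18 for all genes tested. Fumarase (Fh1), which hydrates fumarate to malate, had the largest difference, -0.40 ± 0.08 (adjusted p = 3.04e-05). It ranged from 10.13 to 10.84 with a median of 10.30 in 10 HET hearts and from 9.43 to 10.18 with a median of 10.01 in 10 dKO hearts. Of the dKO hearts, 9 of 10 lay below the lowest HET heart for Fh1, and so did 9 of 10 for Mdh2 and 7 of 10 for Suclg1. Suclg1, a subunit of succinyl-CoA synthetase, differed by -0.36 ± 0.09 (adjusted p = 0.00193).

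Citrate synthase (Cs), which condenses acetyl-CoA with oxaloacetate, was lower, at -0.28 ± 0.09 at that age (adjusted p = 0.013), Dld at -0.33 ± 0.09 (0.00542), Pdha1 at -0.27 ± 0.09 (0.0188) and Mdh2 at -0.25 ± 0.05 (5.21e-05), all as log2 differences. Idh3a, Idh3g and Ogdh did not pass, at -0.19 (95% interval -0.37 to -0.01), -0.13 (-0.31 to 0.06) and -0.12 (-0.29 to 0.05). No member separated the groups wholly at 31 days, where 0.141% of all genes did. With the arrays centred on their medians all 9 members were called lower at 31 days, at -0.72 to -0.44, as were 23.0% of all genes. Within the larger array set, where 2.13% of all genes were called lower, 5 of 9 were lower and Cs did not pass (-0.28, adjusted p = 0.177). When only the groups compared were fitted in limma, Cs (adjusted p = 0.0589) and Pdha1 (0.0789) no longer passed.

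At 43 days, when infarcts are extensive, all 9 members were lower in dKO than in HET chow hearts, against 11.6% of all genes called lower. The differences ran from -0.81 for Idh3a to -0.41 for Ogdh, with a median of -0.64, while the median over all genes tested was 0.26 and 37.0% of all genes were called higher. Centred on the array medians, they ran from -1.16 to -0.76, with 28.0% of all genes called lower and 19.2% higher. Within the larger array set all 9 were again called lower, at -0.82 to -0.43, as were 11.2% of all genes. For Cs, Idh3a, Suclg1, Fh1, Mdh2 and Pdha1 each of the 12 dKO hearts lay below each of the 9 HET hearts, a separation that 2.49% of all genes showed in that direction. For Idh3g, Dld and Ogdh, 11, 10 and 9 of the 12 dKO hearts lay below the lowest HET heart. In whole-heart RNA, fewer heart muscle cells and less of these transcripts per cell cannot be told apart.

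Pdha1 and Dld belong to the pyruvate dehydrogenase complex. Pdha1 encodes the alpha subunit of the decarboxylase that commits pyruvate to oxidation. At 43 days Pdha1 ranged from 11.14 to 11.50 with a median of 11.28 in the 9 HET chow hearts and from 10.16 to 10.85 with a median of 10.54 in the 12 dKO chow hearts, and the groups did not overlap. The difference was -0.75 ± 0.09 (adjusted p = 6.1e-12), so that the geometric mean signal fell by 40.7%. Dld, the dihydrolipoamide dehydrogenase shared by the pyruvate, oxoglutarate and branched-chain complexes, ranged from 10.36 to 11.09 in HET and from 9.66 to 10.42 in dKO hearts, with medians of 10.68 and 10.02. Its groups overlapped through 2 dKO hearts, replicates 2 and 11, and the difference was -0.68 ± 0.09 (adjusted p = 1.61e-09).

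The enzyme activity of citrate synthase, which was not measured here, is widely used as a measure of mitochondrial content. At 43 days the log2 signal of Cs RNA was between 10.47 and 10.97 in HET and between 9.74 and 10.40 in dKO chow hearts, with medians of 10.63 and 10.02. The highest dKO heart thus lay just below the lowest HET heart, and the difference was -0.63 ± 0.09 (adjusted p = 1.67e-09).

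Idh3a and Idh3g encode subunits of the NAD-dependent isocitrate dehydrogenase, Idh3a the catalytic and Idh3g a regulatory one. Idh3a ranged from 9.01 to 9.47 with a median of 9.34 in HET hearts and from 8.07 to 8.87 with a median of 8.51 in dKO hearts, with no overlap. Its difference of -0.81 ± 0.09 (adjusted p = 3.24e-13) corresponds to a signal that fell by 42.9%. Idh3g ranged from 10.28 to 10.57 in HET and from 9.40 to 10.35 in dKO hearts, and dKO replicate 11 reached into the HET range; the difference was -0.47 ± 0.09 (adjusted p = 1.2e-05). Ogdh, the decarboxylase of the oxoglutarate dehydrogenase complex, had the smallest difference, -0.41 ± 0.08 (adjusted p = 3e-05), with 10.31 to 10.71 in HET and 9.62 to 10.49 in dKO hearts, medians 10.59 and 10.14. The 3 dKO hearts in the HET range of Ogdh were replicates 6, 10 and 11.

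Suclg1, Fh1 and Mdh2 carry the later steps from succinyl-CoA to oxaloacetate. At 43 days Suclg1 ranged from 10.39 to 10.75 in HET and from 9.49 to 10.38 in dKO hearts, so the highest dKO heart, replicate 2, came close to the lowest HET heart; the difference was -0.73 ± 0.09 (adjusted p = 6.46e-11). Fh1 ranged from 10.18 to 10.63 in HET and from 9.48 to 10.07 in dKO hearts, with a difference of -0.64 ± 0.08 (adjusted p = 8.36e-12). Mdh2 had the narrowest groups, 11.72 to 11.96 in HET and 11.11 to 11.43 in dKO hearts, with a difference of -0.60 ± 0.05 and the smallest adjusted p of the members (6.85e-19). The hearts did not rank alike for each member: of the 12 dKO hearts, replicate 3 was the lowest for 5 of the 9 members, and replicates 2 and 11 were the highest for 4 each.

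The sizes of these differences were compared between members through the log2 ratio of a pair within each array, on the deposited signals. Centring an array cannot move that ratio, but quantile normalization can. Of 36 pairs, 5 changed unequally between dKO and HET chow hearts at 43 days by an exact two-sided permutation test over the 12 and 9 hearts, adjusted over 39 pairs chosen after the values had been seen. The difference of Idh3a minus that of Ogdh was -0.40 ± 0.09 (SE; adjusted p = 0.00435, exact permutation), and the ratio in 11 of 12 dKO hearts lay below every HET heart. Idh3a also differed more between the genotypes than Idh3g, its partner subunit in the same enzyme, with a gap of -0.34 ± 0.08 (adjusted p = 0.00272, exact permutation). Idh3g differed less between the genotypes than Pdha1 by 0.29 ± 0.08 (0.0157) and less than Suclg1 by 0.26 ± 0.07 (0.0157). Ogdh differed less than Pdha1 by 0.35 ± 0.10 (0.026), all with the exact permutation test. The Idh3g pairs hold for its tested probe set only. Its further, dimmer probe set read 6.05 ± 0.54 (SD, n = 9) in HET and 4.93 ± 0.48 (n = 12) in dKO chow hearts. That is a larger difference than those of Idh3a, Pdha1 and Suclg1, and pairs with that probe set were not tested. The remaining 31 pairs did not pass, which does not show that those members changed alike.

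The genotype difference grew with age. From 21 to 31 days the change of the difference passed for no member as deposited (14.5% of all genes passed in either direction), with values from -0.32 to -0.06 (3 of 9, Cs, Suclg1 and Fh1, at an unadjusted limma p under 0.05), whereas it passed for all 9 after median centring (20.9% of all genes lower). From 21 to 43 days it passed for all 9 members in both scalings, at -0.74 (Idh3a) to -0.37 (Ogdh) as deposited, where 6.06% of all genes were called lower, and at -1.30 to -0.93 after centring, where 23.5% were. With arrays scaled on heart muscle markers, described further on, 4 of 9 passed (Cs, Idh3a, Suclg1 and Pdha1) where 2.63% of all genes were called lower, and the median change was -0.27, beside -0.59 as deposited. Within the larger array set Idh3g (-0.39, adjusted p = 0.112) and Ogdh (-0.38, 0.0949) did not pass. Both comparisons share the 21-day hearts. As deposited, Ogdh in dKO chow hearts was 10.21 ± 0.13 (SD, n = 10) at 21 days and 10.12 ± 0.24 (n = 12) at 43 days. In HET chow hearts it was 10.24 ± 0.12 (n = 9) and 10.52 ± 0.15 (n = 9).

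In HET chow hearts, what the members did with age rested on the scaling. From 21 to 31 days none of the 9 passed in limma (Dld alone at an unadjusted p under 0.05), at -0.15 to 0.25, although 16.7% of all genes did. From 21 to 43 days 1 of 9 passed where 19.8% of all genes did: Ogdh was higher by 0.28 ± 0.09 (adjusted p = 0.0217), and after centring its difference was -0.01 (adjusted p = 0.98). The other 8 lay between -0.04 and 0.19 over that interval as deposited, and between -0.32 and -0.10 after centring, where none of the 9 passed. With quantile normalization Idh3a (-0.37), Idh3g (-0.26) and Mdh2 (-0.17) were called lower from 21 to 31 days.

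**Figure D2:**
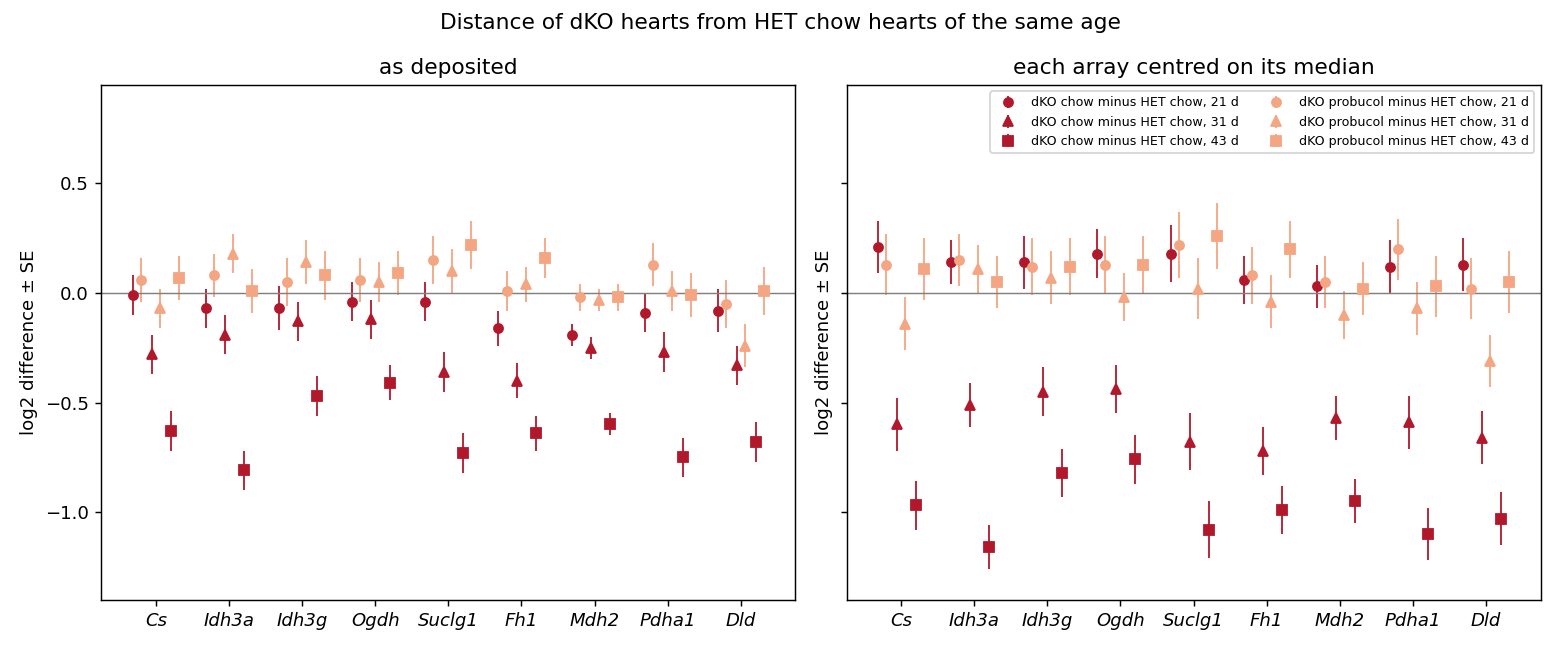
Log2 difference (± SE) of dKO chow hearts (dark red) and dKO probucol hearts (light red) from HET chow hearts of the same age, for each member at 21 days (circles), 31 days (triangles) and 43 days (squares); left as deposited, right with each array centred on its median. On chow the difference reached -0.81 for Idh3a as deposited and -1.16 centred, and on probucol no member was called at any age.

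In dKO hearts the members were higher on probucol than on chow at the later ages. At 21 days none of 9 passed in limma (0.03 to 0.22; 0.176% of all genes called), and 2, Mdh2 and Pdha1, had an unadjusted p under 0.05. At 31 days 6 of 9 were higher on probucol than on chow, where 2.13% of all genes were called higher: Suclg1 by 0.46 ± 0.10 (adjusted p = 0.000133), Fh1 by 0.44 ± 0.08 (1.17e-05), Idh3a by 0.37 ± 0.09 (0.00135), Pdha1 by 0.28 ± 0.09 (0.0192), Idh3g by 0.27 ± 0.10 (0.0287) and Mdh2 by 0.23 ± 0.05 (0.000486). Cs (0.21), Ogdh (0.17) and Dld (0.10) did not pass. With centred arrays all 9 were called higher, beside 7.95% of all genes. When only the groups compared were fitted in limma, Idh3g (adjusted p = 0.0513) and Pdha1 (0.0628) no longer passed. Pdha1 did not pass within the larger array set either (adjusted p = 0.0622, limma). Idh3g also did not pass with its probe sets averaged (0.0963) or with the actin 3' to 5' signal ratio as a covariate (0.0676). The mean log2 of that ratio was 0.386 in dKO chow hearts at 31 days, the highest of the groups, and 0.0354 in dKO probucol hearts.

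At 43 days all 9 were higher on probucol, against 8.22% of all genes called higher, by 0.50 (Ogdh) to 0.95 (Suclg1) with a median of 0.69; the median of all genes was -0.31. After centring they were higher by 0.89 to 1.34, with 21.3% of all genes called higher. Suclg1 ranged from 10.62 to 11.15 with a median of 10.72 in the 6 dKO probucol hearts, against at most 10.38 on chow, a difference of 0.95 ± 0.10 (adjusted p = 4.96e-13) or 1.94-fold. Fh1 ranged from 10.40 to 10.66 on probucol (difference 0.80 ± 0.09, adjusted p = 3.48e-13) and Idh3a from 9.11 to 9.50 (0.82 ± 0.10, 2.77e-11). Mdh2 ranged from 11.76 to 11.97 (0.59 ± 0.06, 1.8e-15), Pdha1 from 11.13 to 11.68 (0.74 ± 0.10, 1.14e-09) and Cs from 10.47 to 11.19 (0.69 ± 0.10, 4.38e-09). For these same 6 members every chow heart lay below every probucol heart, as for 2.73% of all genes. For Ogdh, Dld and Idh3g, 11, 10 and 8 of the 12 chow hearts lay below the lowest probucol heart, which was 10.41, 10.37 and 10.11.

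Replicate 2 was the highest dKO probucol heart at 43 days for 8 of the 9 members, with Pdha1 at 11.68 and Suclg1 at 11.15. The probucol and genotype comparisons at each age use the same dKO chow arrays, so they are not independent of each other.

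Set against HET chow hearts, dKO hearts on probucol passed limma's test for no member at any age. At an unadjusted p under 0.05 there were 0 members at 21 days, 1 at 31 days (Dld) and 1 at 43 days (Suclg1). At 21 days the differences lay between -0.05 and 0.15 (0.106% of all genes called), at 31 days between -0.24 (Dld) and 0.18 (6.21% called) and at 43 days between -0.02 and 0.22 (1.09% called). These do not show equality: at 43 days the 95% interval ran from -0.13 to 0.10 for Mdh2, from -0.22 to 0.19 for Pdha1, from -0.19 to 0.22 for Idh3a and from 0.01 to 0.44 for Suclg1. In HET hearts, the mean probucol effect over the 3 ages passed limma's test for none of the 9 (-0.20 to 0.19; 2.70% of all genes called), with Idh3a and Dld at an unadjusted p under 0.05. The 95% intervals, over 8 HET probucol hearts in all, ran from 0.03 to 0.35 for Idh3a and from -0.37 to -0.02 for Dld. The 2 HET probucol hearts at 43 days read 11.24 and 10.99 for Pdha1 and 9.52 and 9.36 for Idh3a.

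Between the genotypes on probucol none of the 9 passed in limma (-0.10 to 0.12; 0.0882% of all genes called), and 0 had an unadjusted p under 0.05. The probucol effect, averaged over the ages, was more positive in dKO than in HET hearts for 7 of 9 members. Over all genes 5.38% were called in that direction. Suclg1 (0.50 ± 0.10, adjusted p = 0.000111), Fh1 (0.48 ± 0.08, 6.34e-06), Pdha1 (0.47 ± 0.10, 0.00018) and Dld (0.47 ± 0.10, 0.000446) led, with Mdh2 at 0.34, Cs at 0.33 and Idh3g at 0.32. Idh3a (0.26, adjusted p = 0.0567) and Ogdh (0.13, 0.381) did not pass. For Dld the effect in HET hearts was itself negative, so part of its value comes from lower HET probucol hearts. In dKO hearts the effect on Dld was 0.10 at 31 days and 0.68 at 43 days, which the average does not show. Without HET probucol replicate 1 at 43 days, Idh3g was 0.30 and no longer passed (adjusted p = 0.0699), and without replicate 3 of the HET probucol group at 21 days Idh3a was 0.28 and passed (0.0465), as it did at 0.29 without replicate 3 at 31 days (0.0415). After centring 8 of 9 passed, all but Ogdh, with 10.9% of all genes.

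The remaining genes of the complexes and of the cycle largely moved with the members. Of 12 listed, 10 were on the array and 9 were tested, and 8 of these 9 were lower in dKO than in HET chow hearts at 43 days and 8 higher on probucol in dKO hearts, where 11.6% and 8.22% of all genes were called in those directions. They were led by Sdhb, the iron-sulfur subunit of succinate dehydrogenase (-0.77, adjusted p = 1.47e-21), Sucla2, the ATP-forming partner of Suclg1 (-0.85, 3.24e-13), Sdhd, a membrane anchor (-0.60, 4.2e-11), and Sdha, the flavoprotein subunit (-0.84, 1.78e-09). At 31 days 3 of 9 were lower, beside 3.88% of all genes. The list's median at 43 days was -0.60, beside -0.64 for the members and 0.26 for all genes.

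The gene of that list that did not pass at 43 days was Dlat, the acetyltransferase core of pyruvate dehydrogenase, at -0.01 ± 0.12 (adjusted p = 0.932). After centring Dlat was at -0.36 (adjusted p = 0.00163, limma), so whether it was lower in dKO hearts rested on the scaling. Centring cannot move its ratio to the other subunits. Relative to Dlat within each array, Pdha1 was lower in dKO hearts by 0.74 ± 0.11 (adjusted p = 0.000133, exact permutation, the smallest that these hearts can give). The ratio of all 12 dKO hearts lay below that of every HET heart. Dld was lower by 0.66 ± 0.11 relative to Dlat (adjusted p = 0.00073, exact permutation) and Pdhb, the beta subunit of the decarboxylase, by 0.56 ± 0.12 (0.000885). A further, dimmer probe set of Dlat, not in the test, read 5.87 ± 1.09 (SD, n = 9) in HET and 6.02 ± 0.41 (n = 12) in dKO chow hearts, and none of the 12 dKO hearts lay below the lowest HET heart. Dlat was singled out after its values were seen.

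Of the genes that control entry of pyruvate, 11 were listed and 6 tested, with 1 lower and 1 higher at 43 days, when 11.6% of all genes were called lower and 37.0% higher. Ldhb, the heart form of lactate dehydrogenase, was lower, at -1.18 ± 0.15 (adjusted p = 9.93e-11) beside -0.81 for Idh3a. Pdk3, a kinase that inactivates pyruvate dehydrogenase, was higher by 1.81 ± 0.24 (7.6e-10) and lower on probucol in dKO hearts, at -1.73 ± 0.28 (1.22e-07). Its signal was dim in HET chow hearts, at 4.95 ± 0.63 (SD, n = 9), against 6.77 ± 0.36 (n = 12) in dKO chow hearts. Pdk1 (0.19, adjusted p = 0.322) and Pdk4 (-0.40, 0.283), the kinase most tied to fatty acid use in heart, did not pass at 43 days, and Pdk4 was lower at 31 days, at -1.05 ± 0.31 (0.00765). Ldha, the muscle form, was at -0.09 (adjusted p = 0.349) as deposited and -0.44 (0.00113) after centring.

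Among 8 tested genes of cytosolic counterparts, shuttles and NADP-linked enzymes, 2 were lower and 3 higher at 43 days. Over all genes 11.6% were called lower and 37.0% higher, and the 3 of 8 called higher were close to that share. Idh2, the mitochondrial NADP-linked isocitrate dehydrogenase, was lower, at -0.95 ± 0.09 (adjusted p = 1.83e-16) and Slc25a11, the oxoglutarate carrier, at -0.56 ± 0.12 (2.71e-05). Acly, the cytosolic ATP-citrate lyase that opens lipid synthesis, was higher by 0.55 ± 0.13 (0.000117) and the cytosolic Idh1 by 0.54 ± 0.15 (0.00195), but after centring these were 0.21 and 0.19 and none of the 8 was called higher. Of the regulators, 4 of 9 were tested and 3 were lower at 43 days: Ppargc1a, which encodes PGC-1 alpha, at -0.85 ± 0.26 (0.00526), Esrra at -0.44 ± 0.11 (0.000451) and Ppara at -0.44 ± 0.16 (0.0138). Gabpa was at 0.11 (adjusted p = 0.597). A further, dim probe set of Gabpa, not in the test, read 3.82 ± 1 (SD, n = 9) in HET and 2.77 ± 0.61 (n = 12) in dKO chow hearts, with 6 of 88 arrays at the floor. Ppargc1a was dim too, with a mean log2 signal of 5. On probucol at 43 days, Ppargc1a was higher in dKO hearts by 1.26 ± 0.30 (0.000308), and Esrra (0.19) and Ppara (0.30) did not pass as deposited. A further, dimmer probe set of Esrra (mean log2 signal 6.7) was not in the test. At 43 days it read 7.11 ± 0.36 (SD, n = 9) in HET chow and 6.32 ± 0.31 (n = 12) in dKO chow hearts. In dKO probucol hearts of that age it read 6.92 ± 0.1 (n = 6).

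**Figure D3:**
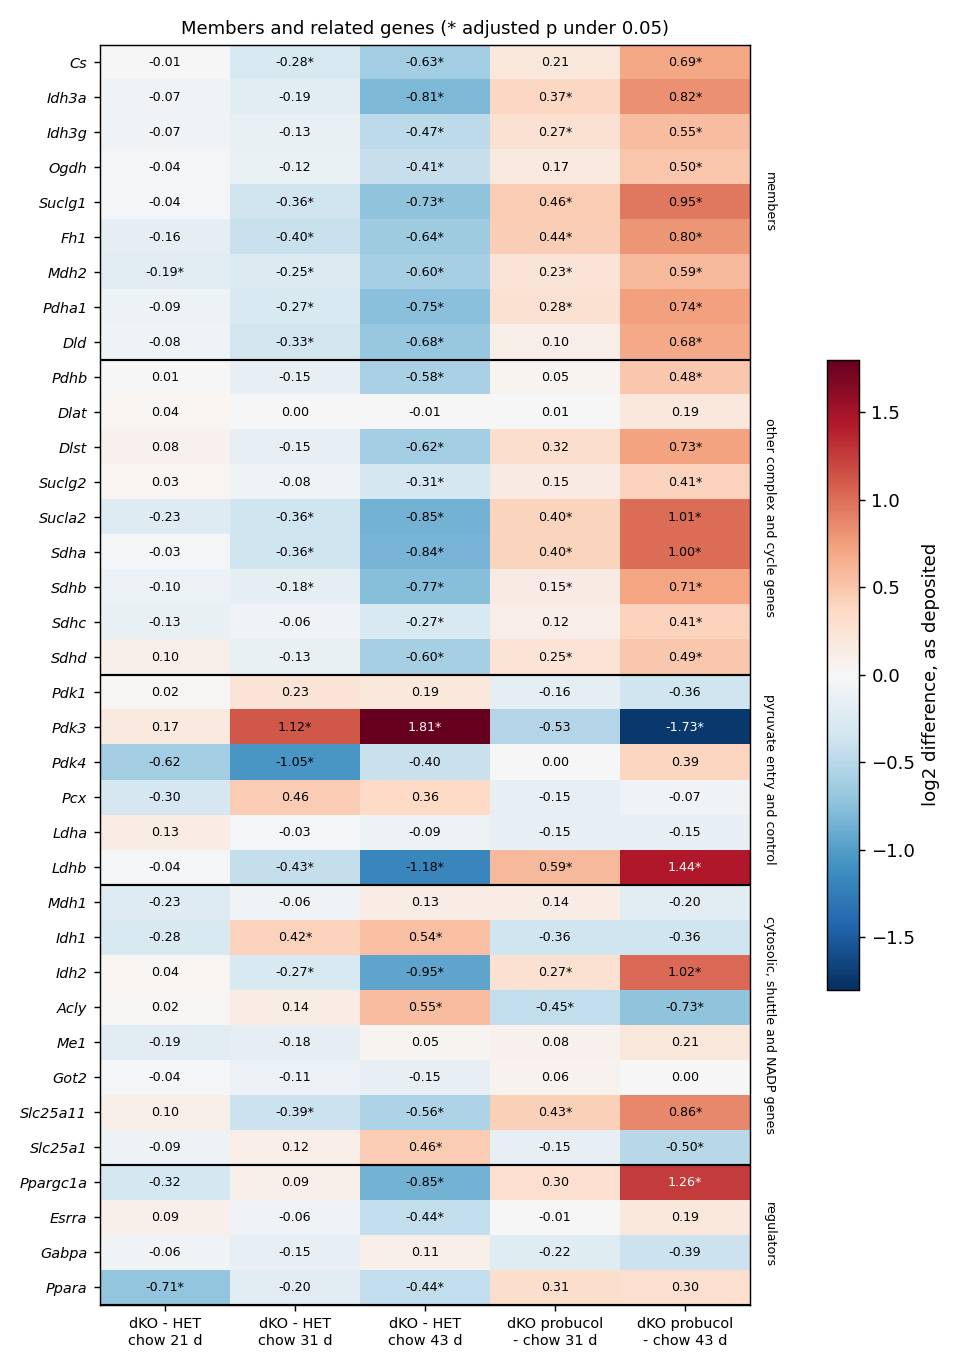
Log2 differences as deposited for the members (top block) and the tested genes of 4 related lists, in 5 comparisons (columns); blue is lower, red is higher, and an asterisk marks an adjusted p under 0.05. The 9 members and 8 of 9 other complex and cycle genes are lower in dKO chow hearts at 43 days and higher on probucol, Dlat is near 0 in the first, and Pdk3 runs the other way at 1.81 and -1.73.

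Among the marker lists of other cells, some separated the genotypes on chow at 43 days and others did not. At 43 days the summed signal of 9 macrophage markers was 1480 to 3690 in HET chow, 9830 to 19100 in dKO chow and 2210 to 2630 in dKO probucol hearts, and all 9 were higher in dKO chow hearts (median difference 2.92), where 37.0% of all genes were called higher. Of 8 fibroblast and matrix genes, 6 were higher, and their sum was 6740 to 9500, 15000 to 22800 and 6160 to 8210 in the same groups. The sum of the 2 tested erythroid genes, Alas2 and Hba-a1, was 3550 to 4600, 11000 to 17600 and 3150 to 5000. At 21 days the erythroid sum was already 4860 to 8890 in HET and 8620 to 12000 in dKO chow hearts. At 31 days it was 4500 to 7440 and 9880 to 12800, and the macrophage sum was 1830 to 3280 and 4870 to 10100. The sum of the 2 tested brown fat genes, Cidea and Cox7a1, went the way of the members, at 2320 to 3150, 583 to 1460 and 2150 to 2890. Of these, Cox7a1, a subunit of cytochrome oxidase that heart muscle also makes, was at -1.66 ± 0.12 (adjusted p = 6.85e-22) in dKO against HET chow hearts, and Cidea was at -0.11 (adjusted p = 0.546). The defining brown fat gene Ucp1 was too dim to be tested (mean log2 signal 3.67). The sums of 5 endothelial genes (822 to 1410 in HET and 962 to 1960 in dKO chow hearts) and of 3 skeletal muscle genes (1920 to 3770 and 2050 to 5040) overlapped between the genotypes. The part of these cells in the members' differences was not tested.

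Heart muscle markers were lower in dKO chow hearts as well. Of 9 cardiomyocyte genes, 7 were lower in dKO than in HET chow hearts at 43 days (median -0.50, range -0.56 to -0.07), beside 11.6% of all genes. In dKO hearts of that age 9 were higher on probucol, beside 8.22% of all genes. Their summed signal was 53100 to 59800 in HET chow, 41600 to 49000 in dKO chow and 56900 to 65500 in dKO probucol hearts. To set the members against them, each array was centred on the mean log2 signal of those 9 genes. On that scale 7 of 9 members were still lower at 43 days, where 4.60% of all genes were called lower: Idh3a at -0.44 (adjusted p = 6.1e-06), Pdha1 at -0.38, Suclg1 at -0.36, Dld at -0.30, Fh1 at -0.27, Cs at -0.25 and Mdh2 at -0.23. Idh3g (-0.09) and Ogdh (-0.03) did not pass. At 31 days 2 of 9 were lower on that scale, Suclg1 and Fh1, beside 1.39% of all genes.

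On the same scale, 5 of 9 were higher on probucol in dKO hearts at 43 days, where 2.54% of all genes were called higher: Suclg1 (0.48), Idh3a (0.35), Fh1 (0.32), Pdha1 (0.27) and Cs (0.22). Heart by heart, the mean log2 of the 9 members minus that of the 9 heart muscle genes was -1.82 to -1.58 with a median of -1.77 in HET chow, -2.23 to -1.70 with a median of -2.01 in dKO chow and -1.96 to -1.44 with a median of -1.83 in dKO probucol hearts at 43 days. The dKO chow hearts overlapped with both other groups on this measure.

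**Figure D4:**
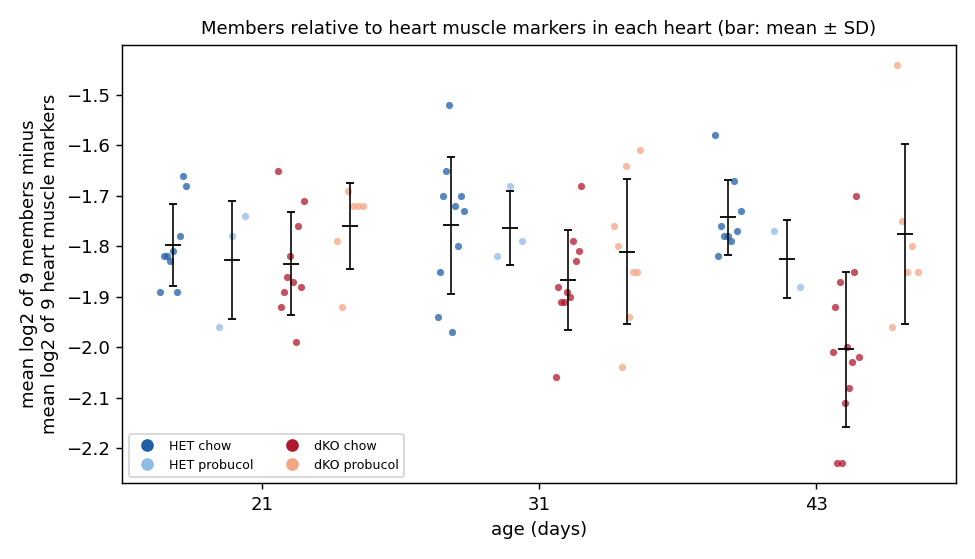
Mean log2 signal of the 9 members minus mean log2 signal of 9 heart muscle markers (vertical axis) in each heart, by age and group; bars are mean ± SD. At 43 days the dKO chow hearts have a median of -2.01 and the HET chow hearts of -1.77, with overlap.

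**Figure D5:**
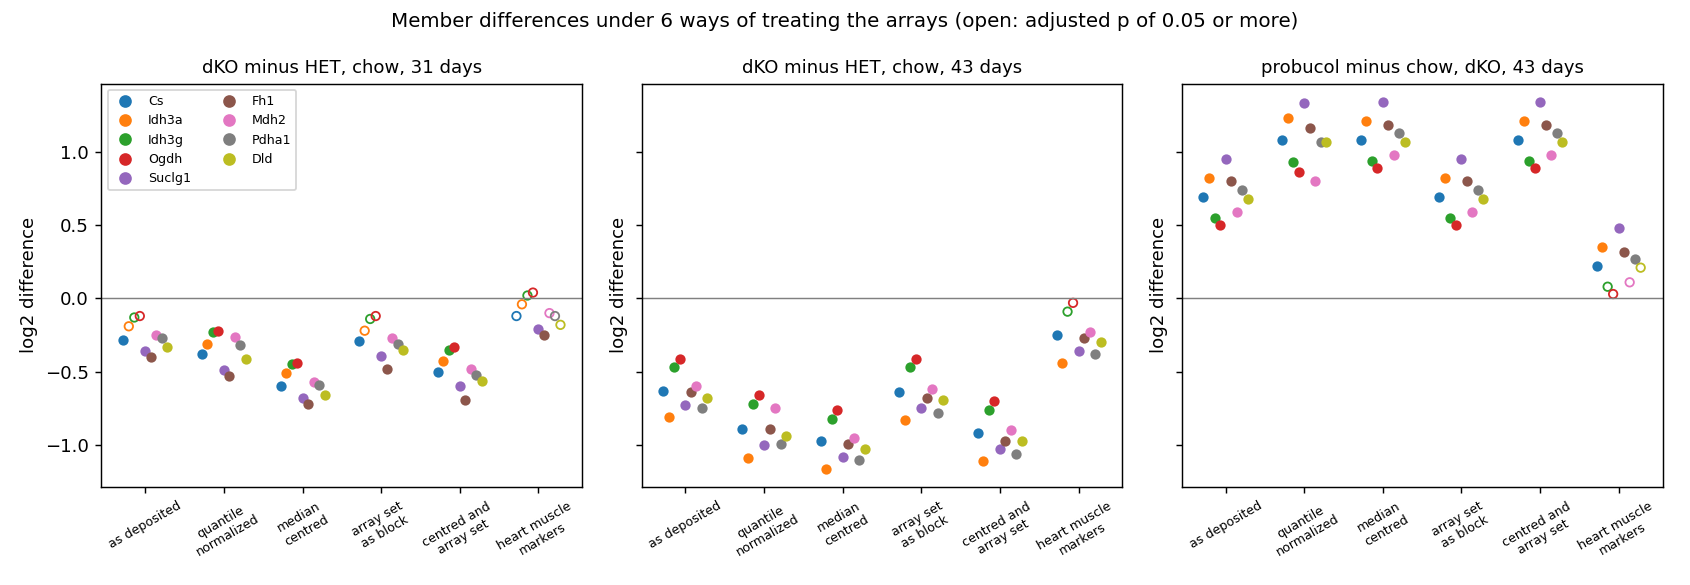
Log2 differences of each member under 6 treatments of the arrays (horizontal axis), for dKO minus HET on chow at 31 and 43 days and for probucol minus chow in dKO hearts at 43 days; filled points passed an adjusted p of 0.05. At 43 days the 9 members stay lower as deposited, quantile normalized, centred and with the array set as a block, and 7 of 9 do on the heart muscle scale.

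The genes outside the members whose profile over the 12 groups lay nearest to the members' mean profile were Eno3, the muscle enolase of glycolysis, Fmc1, an assembly factor of mitochondrial ATP synthase, Ndufb5, a subunit of respiratory complex I, Pde4dip, a scaffold of sarcomere and centrosome, and Tnni3, cardiac troponin I. Likeness was the root mean square difference of centred group means, each minus its own mean, and it was 0.048, 0.050, 0.056, 0.056 and 0.060 for these genes. The members' own distances ran from 0.044 (Mdh2) to 0.138 (Ogdh), and 5 of the 9, Ogdh, Idh3a (0.115), Dld (0.112), Suclg1 (0.079) and Idh3g (0.065), lay farther from the common profile than all 5 of those genes. The nearest other member was Cs for Pdha1 (0.054), Pdha1 for Mdh2 (0.055) and Mdh2 for Idh3g (0.076). These distances rest on 12 group means and are given as a description.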

How the data were processed

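RNA of 88 whole mouse hearts was measured on Affymetrix arrays. The authors deposited MAS5 signal intensity values, linear, per the submitters' processing notes; the sources used here do not state the scaling step. Signals below the 10th percentile of all values (4.22) were raised to it and log2 was taken, with no further scaling. Genes were the probe sets with 1 symbol in the upper 60% by mean log2 signal, the highest kept per gene (5672 genes). limma 3.58.1 in R 4.3.3 fitted 12 group means to all arrays (eBayes with an intensity trend), and 16 contrasts were adjusted by Benjamini-Hochberg over all genes, with a threshold of 0.05. Pairs of genes were compared by exact permutation, a test added after seeing the data. The number of arrays limits the precision. The labels name separate mice.

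The members, lists and settings were chosen with earlier results of these data known. Named were the members, up to 4 genes of each list by adjusted p at 43 days on chow, the 5 genes nearest in profile, and, after their values were seen, Dlat, Pdhb, Pdk1, Pdk4, Ldha, Gabpa and the cell type markers. Alternatives were 3 scalings, floors, filters, probe set averaging, blocks, the actin 3' to 5' ratio as a covariate and leaving out arrays. The limma script was tested on simulated data.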

Additional observations from a re-analysis of the deposited data

Results flagged for a closer look

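In 4 of 72 groups of 4 to 10 hearts, 1 heart stood apart from the others by Dixon's test, where chance alone gives about 1 in 20. HET chow replicate 5 at 31 days was the highest of its group for Suclg1 (11.21, next 10.77) and for Fh1 (10.84, next 10.49), and it was the highest of its group for 7 of the 9 members. For Fh1, dKO chow replicate 1 at 31 days was the lowest (9.43, next 9.86). For Pdha1, dKO probucol replicate 2 at 43 days was the highest (11.68, next 11.33).

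The genotype difference on chow changed from 21 to 43 days for all 9 members by limma's interaction contrast: Idh3a by -0.74, Suclg1 by -0.69, Pdha1 by -0.66, Cs by -0.62, Dld by -0.59, Fh1 by -0.48, Mdh2 by -0.42, Idh3g by -0.39 and Ogdh by -0.37. The adjusted p ran from 1.52e-06 (Mdh2) to 0.0139 (Idh3g). Over all genes 6.06% were called lower. Within the larger array set Idh3g and Ogdh did not pass, and on the heart muscle scale 4 of 9 passed, beside 2.63% of all genes.

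The effect of probucol, averaged over ages, differed between the genotypes for 7 members: Suclg1 by 0.50, Fh1 by 0.48, Pdha1 by 0.47, Dld by 0.47, Mdh2 by 0.34, Cs by 0.33 and Idh3g by 0.32. The adjusted p ran from 1.19e-06 (Mdh2) to 0.0212 (Idh3g). Over all genes 5.38% were called in that direction. Within the larger array set Idh3g did not pass, and on the heart muscle scale Cs, Idh3g and Mdh2 did not.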

How the results depend on the processing

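The count of 9 calls at 43 days on chow was the same in each of the 14 settings but heart muscle scaling, where it was 7. Arrays left out in turn were the 8 HET probucol arrays and dKO chow replicate 2 at 21 days, and none of these bears on that comparison. Of 2277 member differences under alternatives, 2034 kept direction and side of the threshold, 44 lost the call, 51 gained it, 145 moved and 3 reversed. Scaling on heart muscle markers, chosen after seeing the data, left 2 of 6 calls at 31 days on chow, 4 of 9 for the change from 21 to 43 days, 2 of 6 and 5 of 9 for probucol in dKO hearts at 31 and 43 days, and 4 of 7 for the difference of the probucol effect. On that scale 1.39% of all genes were called lower at 31 days on chow, beside 3.88% as deposited. For the change from 21 to 43 days these shares were 2.63% and 6.06%. For probucol in dKO hearts at 43 days, 2.54% and 8.22% were called higher. Shares for the other counts are not given here. The causes of the changed counts were not tested.

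At 21 days the 1 call (Mdh2) went to 0 under quantile normalization, centring, no filter, the array set as a block, centring with that block, heart muscle scaling, the larger array set and a fit of only the groups compared, and also without dKO chow replicate 2. Mdh2 was then 0.03 with centring. The change from 21 to 31 days went from 0 to 3 calls with quantile normalization, 9 with centring and 4 with centring and the array set. Over all genes, 14.5% passed in either direction as deposited, and 20.9% were called lower with centring. The other counts of this paragraph have no share over all genes beside them, so they are not results about the members alone. For dKO on probucol against HET on chow at 31 days, 0 became 2 with quantile normalization and 1 with heart muscle scaling. In HET hearts from 21 to 31 days, 0 became 3 with quantile normalization and 1 with the upper 40%, heart muscle scaling or the larger set. From 21 to 43 days the 1 call (Ogdh) became 0 with centring (-0.01), with centring and the array set (-0.03) and with the larger set, and 1 in the lower direction (Idh3a, -0.29) with quantile normalization. Probucol in HET hearts went from 0 to 1 with quantile normalization.

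The replicate block changed no count of members called: 9 at 43 days on chow and 9 for probucol. The numbers do not pair the hearts, since residuals of same-numbered hearts had a median correlation of 0.00564, against -0.00153 for others, and 12 of 88 arrays matched best with their own number.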
